A study of Schizosaccharomyces pombe with 4 samples.

Results

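Centromere 2 of fission yeast (Schizosaccharomyces pombe) and the chromosome arms on both sides of it were examined for BrdU incorporation in early S phase. The stretch was defined by position alone, as the array probes named for chromosome 2 with a position from 1500000 to 1749999, and held 768 of the 41551 probes of the array. Its core, from 1600000 to 1649999, held 100 probes, and the left and right flanks, from 1500000 to 1599999 and from 1650000 to 1749999, held 334 probes each. Positions are those in the probe names. The genome build of the array is not named in the sources used here, so no annotated centromere element or gene was placed on these positions, and no sequence is printed.

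A fission yeast centromere has a central domain on which the kinetochore is built, and on each side of it blocks of repeats that are packed into heterochromatin by methylation of histone H3 and the protein Swi6. These repeats occur in several copies in the genome and are known to replicate early in S phase, although heterochromatin near the chromosome ends of this yeast replicates late. BrdU, an analogue of thymidine, is built into new DNA, so that DNA recovered with an antibody against it comes from stretches that have replicated. Hydroxyurea lowers the supply of deoxynucleotides and slows forks, which keeps the label close to origins that fire early.

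All cells, controls included, carried cdc25-22, an allele of a phosphatase needed for entry into mitosis that fails at high temperature, with a thymidine kinase gene under the nmt1 promoter (Pnmt1-TK) and the human nucleoside transporter hENT under the adh1 promoter (Padh1-hENT), which let the cells take up BrdU. They were grown in minimal medium at 26 °C, blocked before mitosis at 37 °C, returned to 26 °C with 10 mM hydroxyurea and 200 µM BrdU, and collected at 120 min, a time chosen for the highest septation index. Of the 4 arrays, 2 were labelled wild type (cdc25-22) and 2 were labelled fft3Δ (cdc25-22 fft3_delta), a deletion of the gene of the SNF2-family chromatin remodeller Fft3. Within each group array 1 belongs to series 1 and array 2 to series 2. Cy5 marked the immunoprecipitated DNA and Cy3 the input, which was DNA of the whole-cell extract, with no dye swap. A value is log2 of the processed signal of Cy5 over that of Cy3, centred so that the median probe of each array is 0. The series title names replication of the genome in the absence of Fft3 as the subject, and the comparison here asked how BrdU signal at centromere 2 differed between the labels.

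The arrays differed in ways that bear on the core. The 2 arrays of series 1 shared a slide and a scanner, and those of series 2 were on other slides and another scanner. The SD of the log2 input over all probes was 1.09 on both arrays of series 1, 0.56 on wild-type array 2 and 1.01 on labelled fft3Δ array 2, so that wild-type array 2 stood apart with a compressed input. All 768 probes were well above background in both channels on all 4 arrays, none was saturated, and 24 of them, 4 in the core, were left out on wild-type array 2 for a non-uniformity flag. No run of 12 adjacent probes, about the length of fft3, had, in both series, an input at least 1 log2 unit lower under the fft3Δ label. The lowest value reached in both was -0.28. The deletion was therefore not seen in these values and every direction below is that of the label. Precision is limited by the number of arrays, 2 in each group. Nothing in the labels says that the series came from separate cultures, so p-values measure only how far these arrays spread.

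The core was sparsely covered, and mostly by probes that the design marks. Flank probes stood every 300 bp, at all 334 positions of that grid on each side, whereas the core had probes at 100 of 167 positions. Its longest gap was 5400 bp, from 1635000 to 1640400, followed by a gap of 4200 bp from 1610700 to 1614900. In the core 66 of 100 probe names (66%) end in a mark, f on 44 and m on 22, against 1.65% of the 668 flank probes and 3.66% of the 41251 probes of the 3 chromosomes. What the marks mean is not given in the sources used here.

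The input signal differed with the mark. Multiples of the median probe, here and below, are geometric means over probes, taken from mean log2 values. In the core the 22 probes marked m had a Cy3 signal 9.27, 1.89, 8.38 and 6.60 times the median probe on wild-type array 1, wild-type array 2, labelled fft3Δ array 1 and labelled fft3Δ array 2. Probes marked f gave 1.92, 1.45, 1.67 and 1.80 times in the same order, and the 34 unmarked probes 0.64, 0.89, 0.61 and 0.70 times. The marked probes of the core were thus above the median probe in whole-cell DNA on every array, by least on wild-type array 2. Copy number and hybridisation of these probes cannot be told apart here. Flank probes were close to the median probe, at 1.01, 0.95, 1.02 and 1.04 times.

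The core carried more BrdU signal than its flanks on every array. The mean log2 ratio of the core was 0.53 on wild-type array 1, 0.55 on wild-type array 2, 0.94 on labelled fft3Δ array 1 and 0.60 on labelled fft3Δ array 2. The flanks had 0.15, 0.22, 0.14 and 0.17 in the same order. All 4 core values lay above all 4 flank values. Core minus flanks was 0.38, 0.32, 0.80 and 0.44, a mean of 0.48 ± 0.22 (SD, n = 4 arrays), positive on 4 of 4 arrays. The exact sign-flip permutation test over arrays gave p = 0.13, two-sided, which is the smallest that 4 arrays allow.

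How far the core stood above the flanks depended on which probes and which normalization were used. Without the marked probes core minus flanks was 0.06, -0.15, 0.38 and 0.05 on the same arrays (mean 0.087, exact p = 0.625), so that wild-type array 2 turned negative. With loess normalization within arrays, which removes a trend of the ratio with brightness, it was 0.12, -0.01, 0.51 and 0.18 (mean 0.20, exact p = 0.25). The core's input was also high, and the correlation of input with ratio across its probes was 0.55, 0.45, 0.63 and 0.67 on the 4 arrays (n = 96 on wild-type array 2, 100 on the others). Ratio and input share the Cy3 signal, neighbouring probes share DNA fragments, and the part of input in the height of the core was not tested. The Cy5 signal alone placed the core 1.18 above its flanks.

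**Figure D1:**
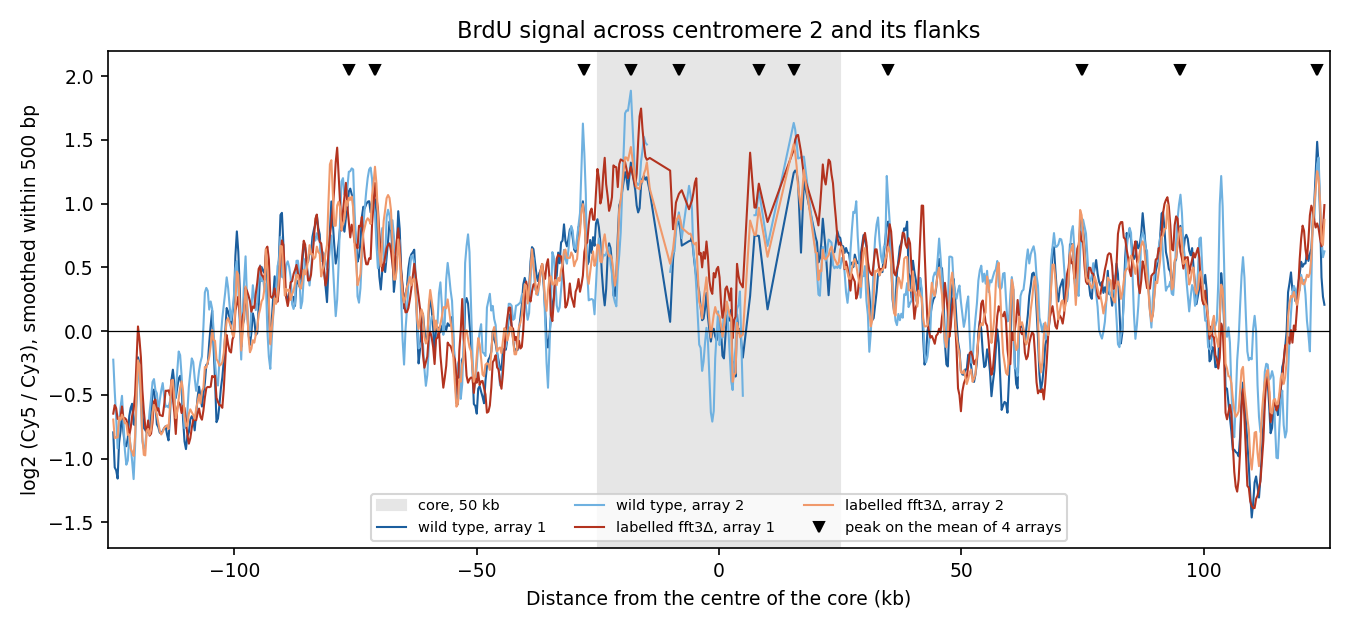
Log2 ratio of Cy5 (BrdU immunoprecipitate) over Cy3 (input), smoothed over probes within 500 bp, against the distance from the centre of the core in kb, with a line per array, the core shaded and a triangle above each of the 11 peaks found on the mean of the 4 arrays. High signal lies on both sides of a low centre within the core. The right flank holds a low stretch in which the mean of the 4 arrays falls to -1.07 at a point. Straight segments in the core cross gaps without probes.

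Set against the whole genome, the core was among the higher tiles of 50 kb. Of 252 tiles with at least 20 probes, the core ranked 15th by the wild-type mean and 2nd by the mean of the arrays labelled fft3Δ. By single array its rank was 17 and 16 on wild-type arrays 1 and 2, and 1 and 9 on labelled fft3Δ arrays 1 and 2. The 4 flank tiles were nearer the middle, with ranks of 127, 64, 69 and 93 from left to right by the wild-type mean. The tile farthest to the left, from 1500000, had -0.03, 0.04, -0.01 and -0.03 on wild-type arrays 1 and 2 and labelled fft3Δ arrays 1 and 2, which is the level of the median probe. The tile left of the core, from 1550000, had 0.29, 0.30, 0.20 and 0.29, and that right of it, from 1650000, 0.20, 0.35, 0.20 and 0.22. The tile from 1700000 had 0.16, 0.21, 0.16 and 0.18. The core tile lay above each flank tile on all 4 arrays.

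**Figure D2:**
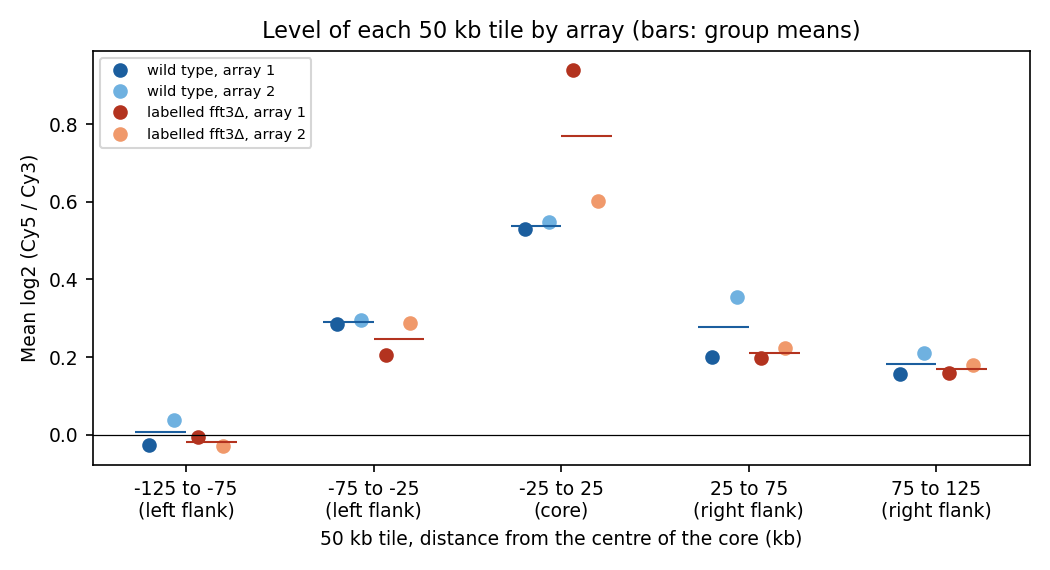
Mean log2 ratio of each 50 kb tile of the region by array, with a point per array and a bar at each group mean. The core tile lies above the 4 flank tiles on every array, and labelled fft3Δ array 1 (0.94) stands above the other 3 arrays (0.53 to 0.60) in the core alone.

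The other centromeres gave a scale for this height. Core minus flanks was 0.25 ± 0.13 at centromere 1 and 0.84 ± 0.11 at centromere 3 (SD, n = 4 arrays each). Centromere 2 lay above centromere 1 on 4 of 4 arrays, by 0.23 ± 0.11, and below centromere 3 on 4 of 4 arrays, by a difference of -0.35 ± 0.11 (SD, n = 4). Both differences had the smallest exact sign-flip p that 4 arrays allow, 0.13. The input of the 3 cores had the same order on 4 of 4 arrays, and on wild-type array 1 was 1.63, 1.87 and 3.69 times the median probe at centromeres 1, 2 and 3. Its part in these differences was not tested.

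Within the core, BrdU signal was high on both sides and low in the middle. In bins of 5 kb from left to right, the first bin (from 1600000, 16 probes) had a mean log2 ratio of 0.57 on wild-type array 1, 0.52 on wild-type array 2, 1.17 on labelled fft3Δ array 1 and 0.64 on labelled fft3Δ array 2. The bin from 1605000 (12 probes, all marked) was the highest of the region by the mean of the 4 arrays, with 1.14, 1.46, 1.40 and 1.25. The bins from 1610000 (3 probes) and 1615000 (10 probes) had 0.79, 0.99, 1.32 and 0.98, and 0.73, 0.86, 0.999 and 0.78. All 25 probes of these last 3 bins are marked, and signal was above 0.70 in each of them on every array.

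The middle bins stood apart. The bin from 1620000 (16 probes, 8 marked) had 0.12, -0.17, 0.60 and 0.24, and the bin from 1625000 (16 probes, 1 marked) -0.05, -0.05, 0.27 and -0.01. Their input was below that of the median probe, with log2 values of -0.57 and -0.95 on wild-type array 1. Labelled fft3Δ array 1 was the highest of the 4 arrays in both bins and both wild-type arrays were below both arrays labelled fft3Δ.

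Signal was high again on the right side of the core. The bin from 1630000 (4 probes, all marked) had 0.63, 0.98, 1.12 and 0.84. The bin from 1635000 held a single probe, at 1635000, with 0.17, 0.67, 0.86 and 0.58. The bin from 1640000 (7 probes, 6 marked) had 1.05, 1.35, 1.35 and 1.18, and the last bin, from 1645000 (15 probes, 9 marked), 0.63, 0.51, 1.05 and 0.54. The right side thus followed the left in outline, with its highest bin inside the core rather than at its border.

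Among the unmarked probes the middle was also lower than the outer core bins that hold such probes. The 10 kb from 1620000 to 1629999, a stretch chosen after its values were seen and therefore given without a test, averaged 0.03, -0.11, 0.43 and 0.12 over 32 probes, against 0.76, 0.88, 1.18 and 0.83 over the other 68. Of the 34 unmarked probes, the 23 in the middle averaged -0.03, -0.13, 0.33 and 0.03. The 11 unmarked probes outside it had 0.71, 0.48, 0.93 and 0.60. These lie only in the bins from 1600000, 1640000 and 1645000, since all probes from 1605000 to 1619999 and from 1630000 to 1639999 are marked. The flank bins beside the core, from 1595000 and 1650000, had 0.66 and 0.55 by the mean of the arrays. The unmarked probes therefore do not show a high signal in the stretches next to the middle. Unmarked probes outside the middle were above those in it on every array. Their input was 0.90, 1.10, 0.86 and 0.84 times that of the median probe, and in the middle 0.54, 0.81, 0.51 and 0.65 times.

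By mark, the ratio was highest on the probes marked m. They averaged 1.06 on wild-type array 1, 1.38 on wild-type array 2, 1.39 on labelled fft3Δ array 1 and 1.18 on labelled fft3Δ array 2. Probes marked f had 0.51, 0.52, 1.04 and 0.61, and unmarked probes 0.21, 0.07, 0.52 and 0.22. The 3 highest probes of the core by the mean of the arrays, at 1640700 (1.56), 1605600 (1.49) and 1606800 (1.49), are all marked m. The 3 lowest, at 1628100 (-1.10), 1623300 (-0.23) and 1626000 (-0.11), are unmarked and lie in the middle. The probe at 1628100 was low on all arrays, with -1.54, -0.63, -0.89 and -1.32. Unlike its neighbours it had a high input, 3.02, 1.70, 2.91 and 3.03 log2 units above the median probe.

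**Figure D3:**
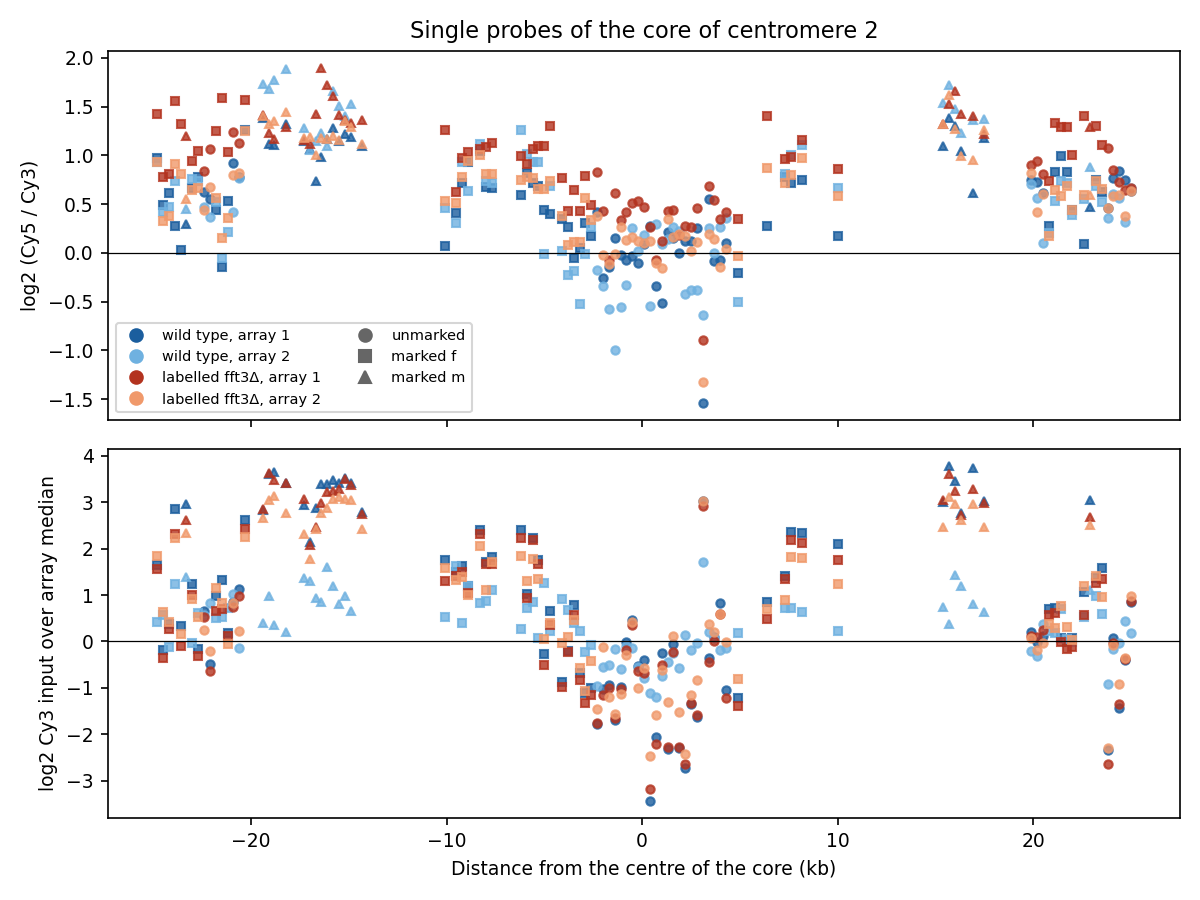
Single probes of the core against the distance from its centre in kb, with the log2 ratio of Cy5 over Cy3 above and the log2 Cy3 input over the array median below; colours are arrays and shapes the marks in the probe names. Probes marked m lie in 2 clusters with high ratio and high input (lower input on wild-type array 2), and the unmarked probes of the middle 10 kb have low input and average -0.13 to 0.33 in ratio by array, with the probe at 1628100 apart at high input and a mean ratio of -1.10.

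Between the genotypes, the core had a higher mean log2 ratio in the arrays labelled fft3Δ, mostly through a single array. The wild-type mean was 0.54 ± 0.01 and that of the arrays labelled fft3Δ 0.77 ± 0.24 (SD, n = 2 each), from the array values given above. The groups did not overlap, but labelled fft3Δ array 2 exceeded the higher wild-type array by less than the spread within its own group. The difference was 0.23, with 0.41 in series 1 and 0.05 in series 2. In the limma fit over all 252 tiles its standard error was 0.11, its 95% interval ran from -0.04 to 0.50 and its adjusted p was 0.896. None of the 252 tiles was called (0% at an adjusted p of 0.05), with 7 at an unadjusted p under 0.05. An exact permutation test on the means of the 4 arrays gave p = 0.33, two-sided, the smallest that 2 arrays against 2 allow. The rise was not particular to centromere 2. The core of centromere 1 differed by 0.15 (0.18 in series 1, 0.12 in series 2), with overlapping groups. That of centromere 3 differed by 0.13 (0.24 and 0.03), without overlap.

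The size of the core difference at centromere 2 rested on labelled fft3Δ array 1 and on the normalization. Without labelled fft3Δ array 1 it was 0.062, and without labelled fft3Δ array 2 it was 0.40, where the core tile passed in limma (adjusted p = 0.0362). It also passed without wild-type array 1 (0.22, adjusted p = 0.0382), with 18 of the tiles called. A lone array is assumed in these fits to vary like the pair of the other group. Under normexp background correction it was 0.13, with -0.19 in series 2, and with centring on the mode 0.15, with -0.13 in series 2. The Cy5 signal alone gave 0.41 (0.28 in series 1, 0.54 in series 2). The input of the core differed by -0.14 in series 1 and by 0.43 in series 2, where wild-type array 2 has the compressed input, and the part of this in the result was not tested.

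The higher values of labelled fft3Δ array 1 were spread over the core. Its log2 ratio was above that of wild-type array 1 in 10 of 10 bins of 5 kb, by 0.26 to 0.69. In series 2 the array labelled fft3Δ was above wild type in 4 of 10 bins, with differences from -0.21 to 0.41. Both arrays labelled fft3Δ were above both wild-type arrays in 3 of 10 bins (from 1600000, 1620000 and 1625000), against 13.7% of 2505 bins of the genome. Among unmarked core probes the difference in ratio was 0.23, with 0.31 in series 1 and 0.15 in series 2. Their Cy5 signal alone differed by 0.26 in series 1 and by -0.13 in series 2, where their input differed by -0.34. On probes marked m the difference in ratio was 0.33 in series 1 and -0.20 in series 2. Their Cy5 signal alone differed by 0.19 in series 1 and by 1.66 in series 2, where their input differed by 1.80.

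**Figure D4:**
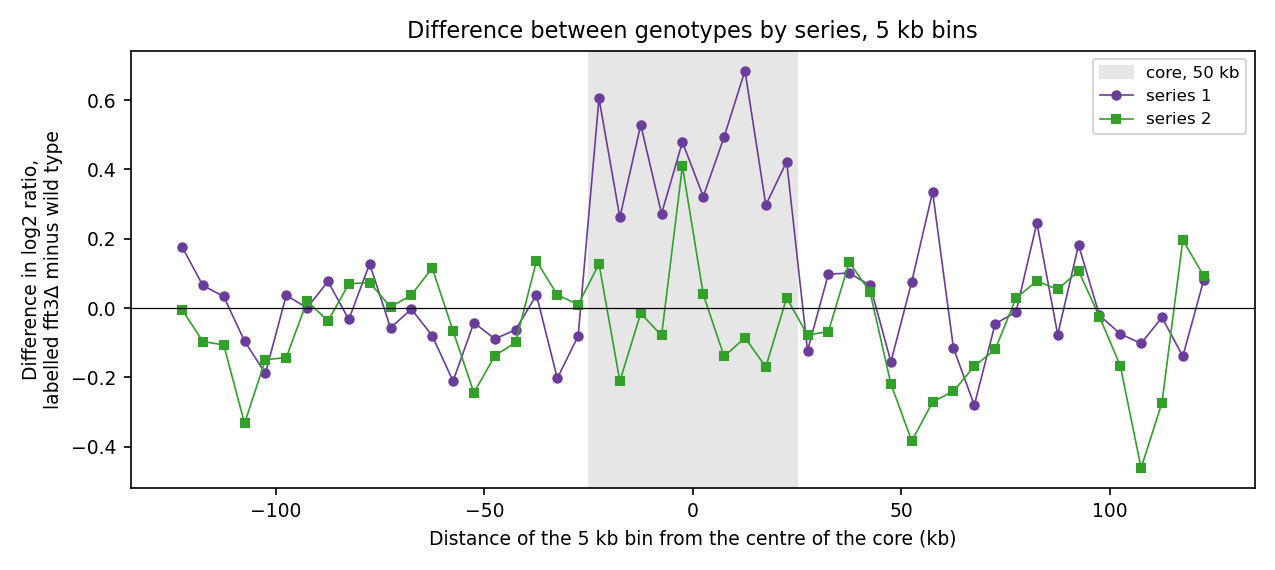
Difference in mean log2 ratio between the labelled fft3Δ and the wild-type array of each series, in bins of 5 kb, against the distance from the centre of the core in kb. In series 1 all 10 core bins lie between 0.26 and 0.69, whereas in series 2 they lie between -0.21 and 0.41, and the flank bins of both series lie on both sides of 0.

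In windows of 2 kb no difference passed. None of the 6223 windows of the genome with at least 3 probes was called in limma (0% at an adjusted p of 0.05), with 305 at an unadjusted p under 0.05, 2 of which were among the 18 core windows. The median core window differed by 0.18, against -0.02 over all windows. Both arrays labelled fft3Δ were above both wild-type arrays in 8 of 18 core windows, against 15.1% of all windows, and below both in 0 of 18, against 19.6%. The sign was positive in both series in 10 of 18 core windows.

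The largest core differences by moderated t lay in the low middle and at the left border. The window from 1622000 had 0.09 and -0.34 in wild type and 0.49 and 0.20 in the arrays labelled fft3Δ, a difference of 0.47 ± 0.18 (SE, limma adjusted p = 0.884). The window from 1620000 had 0.24 and -0.04 against 0.78 and 0.34, a difference of 0.46 ± 0.18 (SE, limma adjusted p = 0.884). At the border, the window from 1600000 had 0.45 and 0.60 against 1.18 and 0.65, a difference of 0.39 ± 0.18 (SE, limma adjusted p = 0.884). In all 3 the groups did not overlap, and in the last the wild-type and labelled arrays of series 2 were 0.05 apart. Without labelled fft3Δ array 1 these differences were 0.32, 0.24 and 0.13. At 1622000 it was 0.25 when wild-type array 2 was left out. From the Cy5 signal alone they were 0.19, 0.13 and 0.57, so that the differences in the low middle were smaller in that channel. Over the middle 10 kb the Cy5 signal differed by 0.31 in series 1 and -0.12 in series 2. No core window was lower in both series.

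Core minus flanks, which takes each array as its own control, was also higher in the arrays labelled fft3Δ. The array values given above differ by 0.27 between genotypes, with 0.42 in series 1 and 0.11 in series 2 (exact permutation p = 0.33, the smallest possible, so that no call can be made). Both labelled arrays lay above both wild-type arrays. Without labelled fft3Δ array 1 the difference was 0.085, and without labelled fft3Δ array 2 it was 0.45.

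Over both flanks the groups did not differ by more than the spread of the arrays. Their mean was 0.19 ± 0.05 in wild type and 0.15 ± 0.02 in the arrays labelled fft3Δ (SD, n = 2 each). The difference was -0.04, with -0.01 in series 1 and -0.06 in series 2 (exact permutation p = 0.67). In the left flank alone the arrays labelled fft3Δ had 0.0995 and 0.1290, against 0.1293 and 0.1651 in wild type. The groups did not overlap, but labelled fft3Δ array 2 and wild-type array 1 were nearly equal. The left-flank difference was -0.033, with -0.030 in series 1 and -0.036 in series 2 (exact permutation p = 0.33, the smallest possible). The right flank had 0.18 and 0.20 against 0.18 and 0.28 in wild type, which overlapped. Per tile the limma difference was -0.02, -0.04, -0.07 and -0.01 from left to right, with 95% intervals whose widest ran from -0.22 to 0.09, and adjusted p between 0.896 and 0.962. The right flank was higher than the left on 4 of 4 arrays, by 0.08 ± 0.03 (SD, n = 4, exact sign-flip p = 0.13, the smallest possible).

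The left flank held a broad high stretch with low ground on both sides of it. From 1500000 to 1519999 the 5 kb bins were low on all arrays, between -0.82 and -0.20. Signal was higher toward the core, and the bin from 1545000 had 0.86 on wild-type array 1, 0.90 on wild-type array 2, 0.99 on labelled fft3Δ array 1 and 0.97 on labelled fft3Δ array 2. The bin from 1550000 had 0.83, 0.79, 0.77 and 0.79, and that from 1555000 0.58, 0.66, 0.58 and 0.70. The bins from 1545000 and 1550000 were the highest pair of the left flank on every array. A low stretch followed, with its lowest point at 1574400, where the smoothed ratio was -0.57, -0.47, -0.48 and -0.40. From 1585000 on the bins were again above 0 on all arrays, and the last bin before the core, from 1595000, had 0.74, 0.62, 0.66 and 0.63.

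Peaks were then located on the smoothed mean of the 4 arrays, as probes with no higher one up to 5 kb away and a value above 0.744, a threshold 1 background SD over the median. The genome held 301 such peaks, with a median height of 0.94, and the region held 11 of them, 3 in the left flank, 4 in the core and 4 in the right flank. The lowest of the 11 had a height of 0.781, and the highest smoothed value in the region under the threshold was 0.739. Not all were found again on single arrays, where an apex within 2000 bp counted as the same peak. Those at 1548600 and 1720200 were found on 1 array and those at 1616700 and 1748400 on 2. The others were found on 3 or 4. None of the 301 peaks was called in limma (0% at an adjusted p of 0.05), with 31 at an unadjusted p under 0.05, none of them in the region.

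The left flank's peaks lay in the broad high stretch and next to the core. The peak at 1548600 had a mean log2 ratio within 1 kb of 0.99 on wild-type array 1, 1.18 on wild-type array 2, 0.94 on labelled fft3Δ array 1 and 1.02 on labelled fft3Δ array 2. The peak at 1554000, 5400 bp away, had 0.84, 0.90, 0.92 and 1.002. Between them the smoothed mean was 0.46 at its lowest, at 1550400. With peaks located on single arrays, the apex nearest to both was at 1548900 on wild-type array 1 and at 1553100 on wild-type array 2. Both labelled arrays had an apex at 1554000. Their apex nearest to 1548600 was at 1546200 on labelled fft3Δ array 1 and at 1545000 on labelled fft3Δ array 2. The peak at 1597200, 2.8 kb outside the core, had 0.80, 0.93, 0.55 and 0.73, and both labelled arrays were below both wild-type arrays there. Its difference was -0.23 ± 0.14 (SE, limma adjusted p = 0.615), the lowest adjusted p among the 11 peaks. It was -0.096 without marked probes, of which it holds 1 of 7, and -0.14 without labelled fft3Δ array 1. At 1548600 the groups overlapped, and at 1554000 both labelled arrays were above both wild-type arrays by a difference of 0.09 ± 0.14 (SE).

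The tallest and the second tallest peak of the region were the outer peaks of the core. The peak at 1606800, with a height of 1.49, ranked 9th of the 301 peaks and that at 1640400, with 1.44, ranked 14th. No other probe lies within 500 bp of 1606800, so its height is the value of a single probe, and 1640400 borders the gap of 5400 bp. Where the grid is full a smoothed value averages several probes, so these ranks set unlike averages side by side. At 1606800 the mean within 1 kb was 1.17 on wild-type array 1, 1.66 on wild-type array 2, 1.21 on labelled fft3Δ array 1 and 1.33 on labelled fft3Δ array 2. At 1640400 it was 1.21, 1.49, 1.48 and 1.30. Wild-type array 2 was the highest at both, and its input there was the lowest, 0.72 and 0.94 log2 units above the median probe against 2.79 to 3.40 on the other arrays. All probes within 1 kb of these apices are marked, 4 at each.

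The inner core peaks were lower and, like the outer ones, rest on few probes. The peak at 1616700 had 0.81, 0.83, 1.06 and 0.87 over 5 probes, and the peak at 1633200 had 0.75, 0.98, 1.03 and 0.83 over 3 probes, all of them marked. Between them the smoothed mean was -0.33 at its lowest, at 1627800. That value includes the probe at 1628100, which had a mean ratio of -1.10 and a high input, so it is lower than the level of the middle. Toward the outer peaks the smoothed mean stayed at 0.58 and 0.57, on single probes beside the gaps. Both labelled arrays were above both wild-type arrays at 1616700, with a difference of 0.15 ± 0.14 (SE), whereas at the other 3 core peaks the groups overlapped.

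The right flank held a plateau between low stretches and ended on a peak. Beside the core, the bins from 1650000 to 1664999 had values between 0.26 and 0.65. The peak at 1659900 in this stretch had 0.67 and 0.74 in wild type and 0.66 and 0.57 in the arrays labelled fft3Δ within 1 kb, lower in both labelled arrays. A shallow low stretch followed, in which wild-type array 2 stood apart from the others. The bin from 1680000 had -0.37 on wild-type array 1, 0.37 on wild-type array 2, -0.04 on labelled fft3Δ array 1 and 0.10 on labelled fft3Δ array 2, so that the 2 wild-type arrays were the lowest and the highest.

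The plateau ran from 1695000 to 1724999, where all 5 kb bins lay between 0.29 and 0.80 on all arrays. It held the peaks at 1699800, with 0.65, 0.60, 0.62 and 0.67 within 1 kb, and at 1720200, with 0.70, 0.83, 0.68 and 0.66, lower in both labelled arrays. Beyond it lay a low stretch that held the lowest smoothed point of the region by the mean of the arrays. At this point, 1736400, the smoothed ratio was -1.31, -0.67, -1.23 and -1.06. Wild-type array 2 was the least low there, and the bin from 1730000 had -0.85, -0.12, -0.95 and -0.58. By the mean of the arrays the lowest 5 kb bin of the region was that from 1500000, with -0.76, against -0.68 from 1735000. The bin from 1735000 was the lower of these on wild-type array 1 and labelled fft3Δ array 1, and the higher on the other arrays. The last peak, at 1748400, had 1.033, 1.038, 0.799 and 1.026, lower in both labelled arrays, though labelled fft3Δ array 2 was nearly equal to wild type. With a height of 1.22 it ranked 35th of the 301 peaks and was the tallest outside the core. On labelled fft3Δ arrays 1 and 2 alone the nearest apex was at 1754700 and 1751400, beyond the region. Their values at 1748400 were therefore taken beside their own apex.

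Over the 11 peaks the genotype differences ran from -0.23 to 0.15, with limma standard errors of 0.14 to 0.15 and adjusted p between 0.615 and 0.960. They were positive at 5 peaks, 3 of them in the core, and negative at 6, and the median over the 301 peaks of the genome was -0.08. Both labelled arrays were below both wild-type arrays at 1597200, 1659900, 1720200 and 1748400, and above both at 1554000 and 1616700. At the other peaks the groups overlapped. The share of such peaks among the 301 is not given here, so no weight is put on these counts. Leaving out a single array turned the sign at 4 of the 11. At 1606800 the difference of -0.15 became 0.096 without wild-type array 2, at 1640400 that of 0.04 became -0.10 without wild-type array 1 and -0.051 without labelled fft3Δ array 1, at 1633200 that of 0.07 became -0.047 and -0.036 without the same arrays, and at 1699800 that of 0.02 became -0.0085 without wild-type array 2 and -0.0055 without labelled fft3Δ array 2. With the Cy5 signal alone the differences of 6 of the 11 turned positive.

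**Figure D5:**
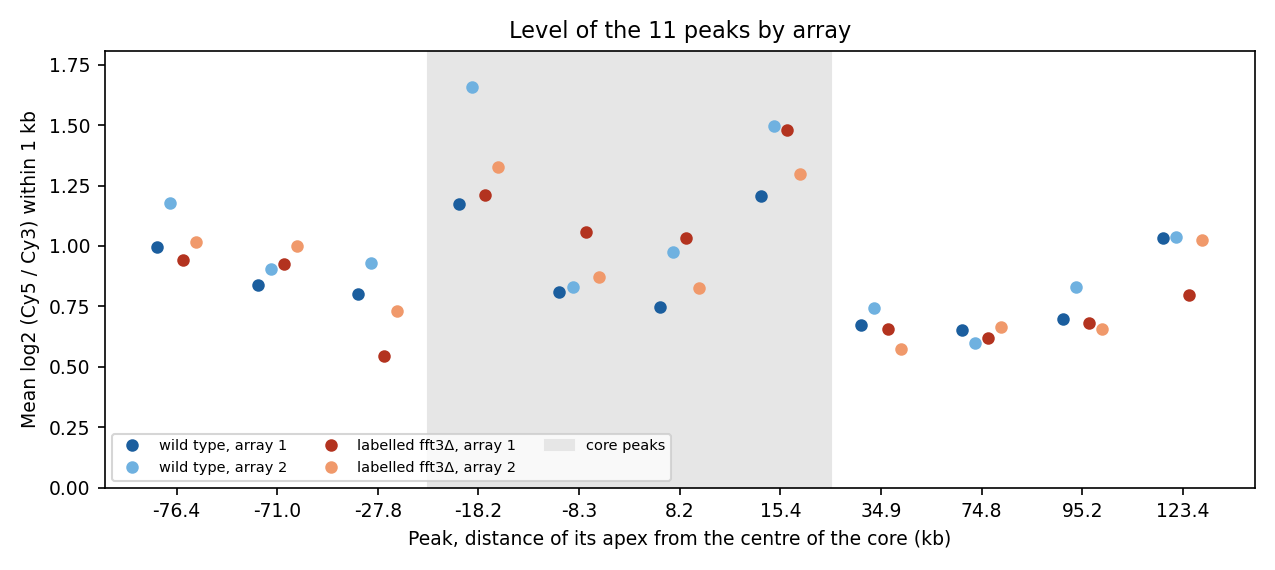
Mean log2 ratio within 1 kb of each of the 11 peaks by array, with a point per array, in the order of the peaks along the chromosome (labels give the distance of the apex from the centre of the core in kb; the spacing of the peaks is not to scale). The outer core peaks reach 1.17 to 1.66 and the right flank's first 3 peaks lie between 0.57 and 0.83.

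In the flanks the 2 kb windows with the largest moderated t were not called either. In the left flank, the window from 1544000 had 0.64 and 0.47 in wild type and 0.87 and 1.01 in the arrays labelled fft3Δ, a difference of 0.38 ± 0.14 (SE), and that from 1588000 had 0.22 and 0.14 against 0.52 and 0.34, a difference of 0.25 ± 0.14 (SE) that was 0.16 without labelled fft3Δ array 1. The window from 1666000, in the right flank, had 0.08 and 0.12 against 0.68 and 0.16, a difference of 0.32 ± 0.18 (SE) that was 0.061 without labelled fft3Δ array 1. The groups did not overlap in these 3 windows.

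In the other direction, the 3 windows with the largest moderated t and a like sign in both series were not called. The window from 1688000 had 0.25 and 0.60 in wild type and -0.10 and 0.07 in the arrays labelled fft3Δ, a difference of -0.44 ± 0.16 (SE). The window from 1694000 had 0.40 and 0.69 against 0.07 and 0.27, and that from 1572000 had 0.0018 and 0.36 against -0.24 and -0.14, both with a difference of -0.37 ± 0.16 (SE). The adjusted p was 0.884 for all 6 windows (limma). Wild-type array 2 was the highest array in these 3, and without it the differences were -0.26, -0.22 and -0.19. The Cy5 signal alone gave -0.046, 0.030 and -0.065. Larger differences with a larger standard error lay in the lowest ground of the right flank, at -0.45 ± 0.31 in the window from 1734000 and -0.45 ± 0.28 in that from 1732000 (SE), windows named after their values were seen. Across the flanks, both labelled arrays were above both wild-type arrays in 6 of 50 left and 4 of 50 right windows, against 15.1% of all windows, and below both in 9 and 10, against 19.6%.

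Probe by probe, the correlations between arrays of unlike genotype spanned those between arrays of the same genotype. Over the core probes the correlation between wild-type arrays was 0.82 (n = 96) and between arrays labelled fft3Δ 0.86 (n = 100), against 0.75 to 0.91 for the pairs of unlike genotype. In the left flank the values were 0.85 (n = 325) and 0.87 (n = 334), against 0.68 to 0.93. The right flank had the lowest, with 0.64 between wild-type arrays (n = 323) and 0.46 between wild-type array 2 and labelled fft3Δ array 1, while wild-type array 1 and labelled fft3Δ array 2 correlated at 0.92 (n = 334). Neighbouring probes share DNA fragments and all probes of an array share a hybridisation, so these values describe the profiles and carry no test.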

How the data were processed

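Per the file headers, the authors' scanner files hold processed Cy5 and Cy3 intensity values, from which Agilent Feature Extraction (12.0, and 11.5 for wild-type array 2) had subtracted background and removed a linear dye factor. Flag columns of the deposited files mark non-uniform and saturated spots. A linear ratio for each spot stands in the deposited series matrix, and matched the processed Cy5 over Cy3 signal, uncentred, to within 0.013 (log2) on all arrays; its column medians were 1.03, 1.07, 0.99 and 1.02 (wild-type arrays 1 and 2, labelled fft3Δ arrays 1 and 2). The deposited log10 ratio column served only to check direction.

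Control and non-uniform spots were left out and log2 ratios were centred on the median probe of each array, without loess or quantile normalization. Tiles, windows and peaks were fitted over the whole genome with limma 3.58.1 in R 4.3.3 (two-sided, Benjamini-Hochberg, genotype as the only term), after tests on simulated data. A peak elsewhere lacked a value on 1 array and was fitted from the others. Array means were compared with exact permutation tests. Files were read with the data.table package (version 1.17.8) and figures drawn with matplotlib 3.10.9.

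Named were all peaks, tiles and 5 kb core bins, the 3 highest and lowest core probes, and the 3 windows of 2 kb highest and lowest by moderated t, in core and flanks, of like sign in both series. Members, tests and lists were chosen with earlier results of these data known, the peak threshold among them. The array's positions run past the end of the reference (ASM294v3), to 2453700 against 2452883 bp on chromosome 3, so nothing was converted.

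Alternatives covered background correction, normalization, probes and spots used, the widths of core, flanks and windows, the series as a block and each array left out. Normexp used median spot signals, since a mean signal column is not in the files.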

Additional observations from a re-analysis of the deposited data

How the results depend on the processing

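The core's mean in wild type, 0.54, was 0.21 with loess, 0.36 with centring on the mode, 1.23 with the Cy5 signal alone, 0.14 without marked probes and 0.57 as a median over probes, an alternative chosen after seeing the data; without a single wild-type array it was 0.53 to 0.55. Core minus flanks stayed positive in the mean under all 15 alternatives, from 0.087 to 1.18. The core difference between genotypes was positive under all 16, from 0.062 to 0.41 in all and from 0.062 to 0.40 without a single array, with the core tile called in 2 of those 4 fits, and the flank difference turned to 0.069 with the Cy5 signal alone (-0.071 to -0.0016 without a single array). The labels share series numbers between genotypes without saying what a number stands for, and the deviations of same-numbered arrays correlated at 0.37 over 6223 windows, a check that 2 pairs cannot settle. With the series, which here is also the scanner, as a replicate block the core difference kept its value of 0.23 (limma adjusted p = 0.624), and the block changed no call in the region, while 113 windows and 6 peaks of the genome were called against 0 in each case. The block could not be applied to a level within wild type or to core minus flanks, which is a difference within each array. Tiles called numbered 4 with centring on the mode and 4 to 18 without a single array. Windows called ranged from 0 to 42 without a single array, none of them in the region. Peaks called numbered 2 with loess, 5 with non-uniform spots kept and 5 without marked probes. At 2 background SDs the region held 1 peak, and 8 to 15 under the other settings. Peak differences that changed sign were, with normexp, -0.22 (1554000), -0.014 (1616700), -0.16 (1633200), -0.27 (1640400) and -0.18 (1699800), and with centring on the mode -0.019 (1633200), -0.047 (1640400) and -0.068 (1699800). From Cy5 alone the values were 0.37 (1548600), 0.031 (1597200), 0.93 (1606800), 0.39 (1659900), 0.33 (1720200) and 0.41 (1748400), and the window from 1694000 turned to 0.030. Without a single array the sign changed at 4 peaks, where the differences ranged from -0.39 to 0.096 (1606800), -0.047 to 0.18 (1633200), -0.10 to 0.18 (1640400) and -0.0085 to 0.045 (1699800). The causes were not tested. All 768 probes were well above background, so precision is limited by the 2 arrays per group and by the gaps of the core.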
